A study of Homo sapiens with 4 samples.

Results

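The genes described here encode transcription factors that cells switch on early after growth factor, cytokine or stress signals. They are the Fos genes FOS, FOSB, FOSL1 and FOSL2, the Jun genes JUN, JUNB and JUND, the related gene ATF3, the zinc finger gene EGR1 and the growth regulator gene MYC. They were chosen by gene name, as the 10 rows of the expression table with these names out of 20329 genes kept, and all 10 were found. The choice was made with earlier results of these data known. Fos proteins must pair with Jun proteins to bind DNA, and Jun proteins can also pair with each other. The pairs form the factor AP-1, which in invasive breast cancer cells is known for driving protease and motility genes. MAP kinases raise transcription of several of these genes through the factors SRF and ELK and by phosphorylating Jun and ATF proteins. MYC pairs with MAX and drives ribosome assembly and metabolism.

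The cells were BM1 (1833) and LM2 (4175), triple-negative breast cancer derivatives of MDA-MB-231 labelled as coming from bone and lung metastasis. Cells of each line stably carried a lentiviral shRNA, either one against hnRNPM, an RNA-binding protein that regulates splicing, or a non-specific one as control. All 4 groups thus carried a lentivirus and an shRNA. Each of the 4 groups was 1 library of polyadenylated RNA, and the sources used here do not say how many shRNAs or clones stood behind it. The series' title places the study in splicing control during the epithelial-mesenchymal transition. Levels are FPKM, which are fragment counts scaled to gene length and library size, so they can be compared between genes.

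Low values in the table fell on steps that put the depth, in units of 1000000 fragments, at about 31.2 and 22.8 for BM1 control and knockdown and at 41.5 and 27.3 for the LM2 pair, if 1 step is 1 fragment. Genes of the mitochondrial genome took 8.80% and 9.31% of the summed FPKM in the controls and 11.8% and 12.8% in the knockdowns. The targeted gene HNRNPM was at 171 FPKM in the BM1 control and 28.4 in the BM1 knockdown, and at 132 and 20.3 FPKM in LM2 (-2.59 ± 0.25 on the log2 scale over both lines, standard error, limma adjusted p 0.00318). HNRNPM overlaps ELAVL1 on the opposite strand, which was at 24.9 to 35.3 FPKM, so its low knockdown values are uncertain. All 5 markers of a mesenchymal breast cancer line (VIM, CD44, AXL, CAV1 and MSN) were present, with sums of 2080 to 3441 FPKM. Of the luminal markers GATA3, EPCAM and KRT19 had values (sums of 26.4 to 231 FPKM, mostly KRT19), and of the receptors that define the triple-negative class only ERBB2 had, at 13.5 to 21.9 FPKM. Of 4 leukocyte markers only CD68 had values, at 23.5 and 4.46 FPKM in the BM1 pair, with 9.50 and 2.04 FPKM in the LM2 pair. CD68 overlaps RP11-186B7.4 on the same strand, which was at 6.45 to 17.9 FPKM. VIM overlaps VIM-AS1 on the opposite strand, which was at 822 to 1535 FPKM, so the values of CD68 and VIM are uncertain. Of 3 endothelial markers only VWF had values, at 0.0300 to 0.163 FPKM. ESR1, PGR, FOXA1, PTPRC, CD3E, ITGAM, PECAM1 and CDH5 have no row among the genes kept. The leukocyte, luminal and mesenchymal sums differed between the libraries, and their part in the results was not tested.

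MYC and JUN moved in opposite directions after hnRNPM knockdown. MYC rose 8.57-fold in FPKM in BM1 and 12.3-fold in LM2, and JUN fell, with an FPKM 3.46 times lower in BM1 and 2.18 times lower in LM2. Over both lines these were the members below an adjusted p of 0.05 in limma, fitted with terms for cell line and treatment to log2(FPKM + 1) of the 13928 genes that averaged 1 FPKM or more. Of the 9 members with such a mean 1 was called higher and 1 lower, where the fit called 5.47% of the genes tested, 2.71% upward and 2.76% downward. In bulk RNA fewer cells of a type and less RNA per cell cannot be told apart. At an unadjusted p under 0.05 there were 7 of the 9, where 24.9% of all genes tested passed. Since the members were chosen with earlier results known, these counts describe them and are no test of the group. The fit has 1 residual degree of freedom, which is the difference between the lines' changes, so a gene whose change differed between the lines has a wider error. To this limma adds a variance shared by all genes tested, with a weight of 7.70 degrees of freedom. The standard errors are thus largely not a gene's own spread.

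**Figure D1:**
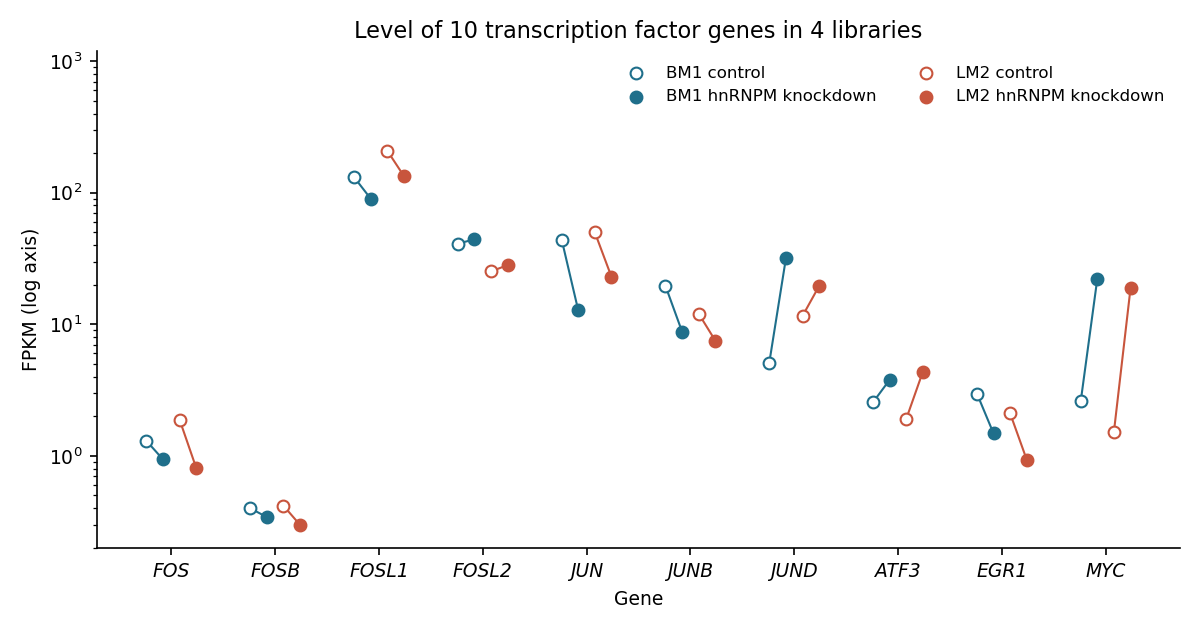
Level of each of the 10 genes in FPKM on a log axis. Open circles are control libraries and filled circles hnRNPM knockdown libraries, blue for BM1 and red for LM2, with a line joining the 2 libraries of a line. MYC goes from 2.60 to 22.2 FPKM (BM1) and 1.53 to 18.8 FPKM (LM2), while JUN goes from 44.1 to 12.7 and from 49.9 to 22.9 FPKM.

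MYC (ENSG00000136997.15, chromosome 8, 128747680 to 128753680, plus strand, GRCh37) stood at 2.60 FPKM in control and 22.2 FPKM in knockdown BM1 cells, and at 1.53 and 18.8 FPKM in the LM2 counterparts. Both knockdown libraries were above both controls, and the controls differed from each other by far less than either did from its knockdown. The FPKM ratio of knockdown to control was 8.57 in BM1 and 12.3 in LM2. On the log2(FPKM + 1) scale, which understates the change of low genes, the difference over both lines was 2.83 ± 0.26 (standard error, n = 2 lines, limma adjusted p 0.00304), the 10th largest increase of the 13928 genes. The call was lost with quantile normalization (adjusted p 0.0596), with no filter on low genes (0.220) without the pairing by line (0.213) and with any 1 library left out (0.177 to 0.613), while the difference stayed between 2.58 and 3.30 under all 14 alternatives. Among all genes tested MYC moved from percentile 21.1 to 73.6 of FPKM in BM1 and from 9.05 to 70.5 in LM2.

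JUN (ENSG00000177606.6, chromosome 1, 59246460 to 59249999, minus strand, GRCh37) encodes c-Jun, the Jun protein with the strongest activity in AP-1. It was at 44.1 FPKM in control and 12.7 FPKM in knockdown BM1 cells, and at 49.9 and 22.9 FPKM in the LM2 counterparts. Both controls were above both knockdowns. The FPKM was 3.46 times lower in the BM1 knockdown and 2.18 times lower in the LM2 knockdown than in the control of the same line. Over both lines JUN fell by 1.40 ± 0.27 (log2, standard error, n = 2 lines, limma adjusted p 0.0266). The call was lost with a pseudocount of 0.1 (adjusted p 0.106), after rescaling without mitochondrial genes (0.0864), once trends with GC content and length were removed (0.0507), with quantile normalization (0.0809), with no filter (0.220) without the pairing (0.353) and with any 1 library left out (0.343 to 0.815). The difference itself stayed between -1.80 and -1.002 under all 14 alternatives.

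JUND and JUNB, the other two Jun genes, did not follow JUN alike. JUND encodes a Jun protein known for slowing growth in some cells, and it lies on chromosome 19 from 18390570 to 18392432 (ENSG00000130522.5, minus strand, GRCh37). JUND stood at 5.10 FPKM in control and 31.7 FPKM in knockdown BM1 cells, and at 11.6 and 19.5 FPKM in the LM2 counterparts. Both knockdowns were above both controls, by 6.20 times in BM1 and 1.69 times in LM2. The difference over both lines was 1.56 ± 0.38 (log2, standard error, limma adjusted p 0.0515), just above the threshold. It was below it among genes that averaged 5 FPKM or more (adjusted p 0.0370) and with an intensity trend (0.0406), and above it in the other 12 alternatives (0.0506 to 0.815). Of the 9 members, JUND alone had changes that differed at least 2-fold between the lines (2.42 in BM1 and 0.71 in LM2 on the log2 scale), and 10.7% of all genes tested did. That difference between lines cannot be tested with 4 libraries.

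JUNB encodes a Jun protein that can restrain c-Jun. It was at 19.6 FPKM in control and 8.79 FPKM in knockdown BM1 cells, and at 12.0 and 7.52 FPKM in the LM2 counterparts. Both controls were above both knockdowns. The difference over both lines was -0.84 ± 0.26 (log2, standard error, limma adjusted p 0.0977). JUNB overlaps HOOK2 on the opposite strand, whose values were 17.7, 11.3, 8.15 and 6.61 FPKM in the same order of libraries. The sources used here do not say whether the counting used the strand, so reads of the pair may be shared and the values of JUNB are uncertain.

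The make-up of the Jun messenger RNA pool differed between control and knockdown libraries. JUN gave 64.1% of the summed FPKM of the 3 Jun genes in the BM1 control and 23.96% in the BM1 knockdown. In LM2 its share was 67.9% in the control and 45.9% in the knockdown library. JUND gave 7.42% and 59.5% in BM1 and 15.7% and 39.1% in LM2. The ratio of JUND to JUN was 0.116 in the BM1 control and 2.48 in the BM1 knockdown, and 0.232 and 0.852 in LM2. JUND was thus above JUN in the BM1 knockdown library only, out of 4. The summed level of the 3 genes was 68.8 and 53.2 FPKM in BM1 and 73.5 and 50.0 FPKM in LM2. These shares carry no test, because each rests on 1 library.

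**Figure D2:**
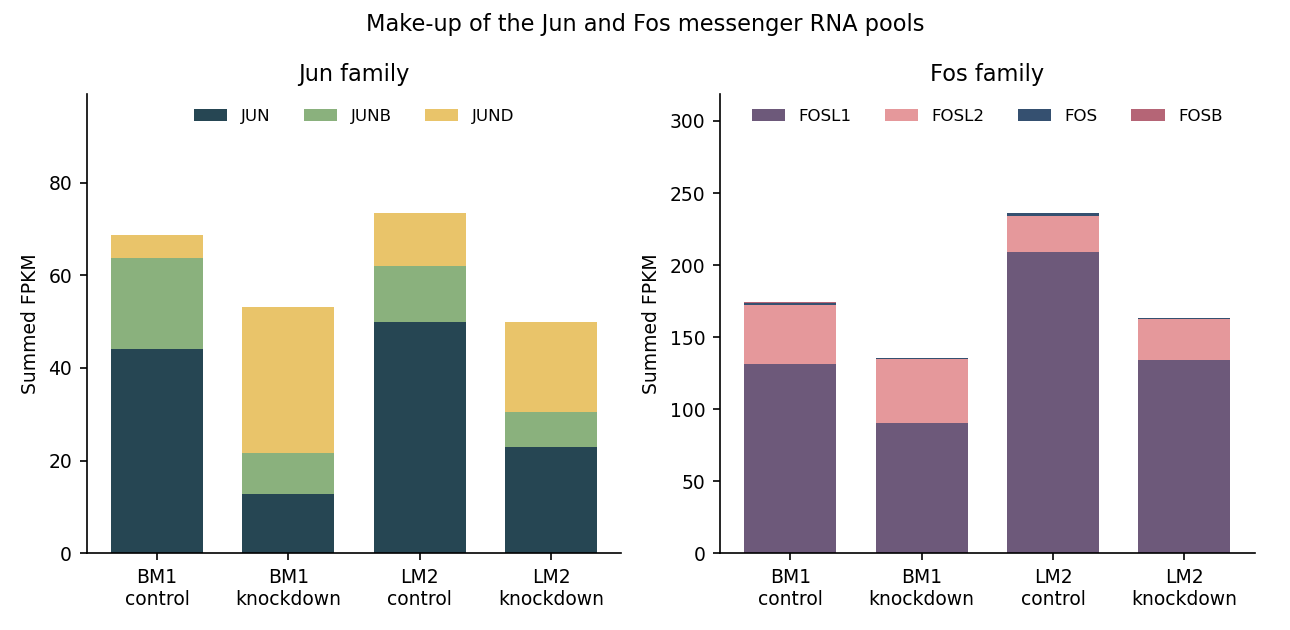
Summed FPKM of the Jun genes (left) and the Fos genes (right) in each of the 4 libraries, with the part of each gene as a coloured segment. In BM1 the JUN segment goes from 64.1% to 23.96% of the Jun sum and the JUND segment from 7.42% to 59.5%, while FOSL1 stays the largest Fos segment in all 4 libraries.

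Promoter sequences are shown for the Jun genes with opposite differences and for EGR1, because they hold matches to motifs of the factors described here. They are the 250 bases before the start of each gene in RefSeq (GRCh38.p14), 5' to 3' on the gene's strand, with motif matches in capitals. The JUN promoter lies at chr1:58784048-58784297 (minus strand), the JUND promoter at chr19:18281623-18281872 (minus strand) and the EGR1 promoter at chr5:138465229-138465478 (plus strand).
JUN: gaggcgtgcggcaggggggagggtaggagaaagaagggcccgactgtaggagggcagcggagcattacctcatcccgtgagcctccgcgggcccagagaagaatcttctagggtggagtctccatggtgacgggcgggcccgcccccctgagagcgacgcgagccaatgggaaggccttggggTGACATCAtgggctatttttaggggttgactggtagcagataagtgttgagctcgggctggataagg
JUND: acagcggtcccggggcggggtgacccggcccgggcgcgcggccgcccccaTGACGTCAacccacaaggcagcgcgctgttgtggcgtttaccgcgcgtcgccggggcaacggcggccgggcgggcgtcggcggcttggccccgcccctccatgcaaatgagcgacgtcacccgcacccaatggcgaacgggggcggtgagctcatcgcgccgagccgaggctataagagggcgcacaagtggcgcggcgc
EGR1: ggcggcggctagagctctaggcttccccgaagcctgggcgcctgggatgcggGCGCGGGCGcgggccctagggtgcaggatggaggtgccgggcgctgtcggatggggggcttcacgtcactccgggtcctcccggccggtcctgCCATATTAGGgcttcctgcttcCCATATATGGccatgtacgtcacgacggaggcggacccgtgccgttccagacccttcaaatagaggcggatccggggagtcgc
Both strands were searched for TGANTCA (the AP-1 site), TGACNTCA (the longer site of Jun and ATF or CREB proteins), the CArG box of SRF, GCGNGGGCG (the EGR1 site) and CACGTG (the E-box of MYC and MAX). The capitals mark TGACATCA in JUN, 67 bases before the start, TGACGTCA in JUND, 200 bases before it, and in EGR1 the CArG boxes CCATATTAGG and CCATATATGG, 105 and 83 bases before it, and GCGCGGGCG, 198 bases before it. TGACATCA also occurs in an ATF3 promoter, 123 bases before the start. Within these 250 bases FOS, FOSB, FOSL2 and JUNB held no match to any of these motifs. Sites farther from the start were not searched, so none of these genes can be said to lack such a site. No member promoter searched held TGANTCA or CACGTG. Among 35116 RefSeq promoters of the same length 6.87% held TGACNTCA, 1.16% a CArG box, 8.42% GCGNGGGCG, 6.57% TGANTCA and 6.35% CACGTG. JUN and JUND thus share a type of site while their levels differed in opposite directions. A match describes the letters and does not show that a factor was bound. Of 9 members looked up, 8 were in the promoter table and FOSL1 was not, and the promoter of MYC was not analysed here.

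Among the Fos genes FOSL1 was the most abundant in all 4 libraries. FOSL1 (ENSG00000175592.8, chromosome 11, 65659520 to 65668044, minus strand, GRCh37) encodes FRA1, the Fos protein known for its high level in invasive breast cancer lines. It was at 131 FPKM in control and 90.2 FPKM in knockdown BM1 cells, and at 209 and 134 FPKM in the LM2 counterparts. Each knockdown was below the control of its own line, although the LM2 knockdown lay slightly above the BM1 control. The difference over both lines was -0.59 ± 0.25 (log2, standard error, limma adjusted p 0.191). FOSL1 gave 75.5% and 66.5% of the summed Fos FPKM in the BM1 control and knockdown, and 88.3% and 82.1% in LM2. By level it lay at percentile 94.7 of all genes tested or above in each library.

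FOSL2 encodes FRA2, the other long-lived Fos protein, and was at 41.0 FPKM in control and 44.2 FPKM in knockdown BM1 cells, and at 25.3 and 28.2 FPKM in the LM2 counterparts. These values separated the lines rather than the treatments. The knockdown difference was 0.13 ± 0.25 (log2, standard error, limma adjusted p 0.790). FOSL2 overlaps RP11-373D23.2 on the same strand, which was at 0.105 to 1.98 FPKM. With FOSL1 lower and FOSL2 near its control level, the ratio of FOSL1 to FOSL2 was 3.20 and 2.04 in BM1 and 8.27 and 4.76 in LM2.

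FOS and FOSB, which are known for brief peaks after stimulation, were low in every library. FOS was at 1.30 FPKM in control and 0.939 FPKM in knockdown BM1 cells, and at 1.88 and 0.809 FPKM in the LM2 counterparts. Both knockdowns were below both controls, and the difference over both lines was -0.46 ± 0.26 (log2, standard error, limma adjusted p 0.315). FOSB was at 0.400 and 0.342 FPKM in the BM1 pair, with 0.418 and 0.299 FPKM in the LM2 pair. It was the single member whose mean was under 1 FPKM, so it was not tested. FOSB overlaps ERCC1 on the opposite strand, which was at 26.9 to 57.3 FPKM, so the values of FOSB are uncertain. The level of FOSL1 was 96.1 to 166 times that of FOS.

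EGR1 encodes a zinc finger factor that MAP kinase signals raise within minutes, by way of SRF among other factors. EGR1 (ENSG00000120738.7, chromosome 5, 137801179 to 137805004, plus strand, GRCh37) was at 2.98 FPKM in control and 1.48 FPKM in knockdown BM1 cells, and at 2.10 and 0.935 FPKM in the LM2 counterparts. Both knockdowns were below both controls, by 2.01 times in BM1 and 2.25 times in LM2. The lines' changes were nearly equal on the log2(FPKM + 1) scale, at -0.68 in each. Over both lines the difference was -0.68 ± 0.25 (log2, standard error, limma adjusted p 0.141). With its single annotated transcript and the inferred depth, these levels stand for about 292, 106, 274 and 80 fragments. The exact Poisson 95% intervals on them were 2.65 to 3.34 and 1.21 to 1.79 FPKM in BM1, and 1.86 to 2.37 and 0.742 to 1.16 FPKM in LM2. They do not overlap within a line, but their widths rest on the inferred depth, which holds only if 1 step is 1 fragment. They cover counting error only and are no test of the knockdown.

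ATF3 encodes a stress-induced factor that pairs with Jun proteins and often represses. It was at 2.56 FPKM in control and 3.79 FPKM in knockdown BM1 cells, and at 1.92 and 4.37 FPKM in the LM2 counterparts. Both knockdowns were above both controls. The difference over both lines was 0.66 ± 0.26 (log2, standard error, limma adjusted p 0.167).

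All 10 genes differed in the same direction in both lines, 4 higher and 6 lower in the knockdowns, although FOS in BM1 turned from -0.25 to 0.02 (log2) once trends with GC content and length were removed. For the 9 tested members that is 9 of 9, where 69.1% of all genes tested had 1 direction in both lines, 36.2% lower and 33.0% higher. The lines' changes share no library, but the members were chosen with earlier results known, so the count describes them and is no test. At least 2-fold differences on the log2(FPKM + 1) scale were seen in BM1 for JUND and MYC upward (2 of 9, against 10.1% of all genes tested) and for JUN and JUNB downward (2 of 9, against 6.2%, or 16.3% in either direction). In LM2 they were seen for MYC upward (1 of 9, against 3.83%) and for JUN downward (1 of 9, against 4.24%, or 8.06% in either direction). The median difference over the 9 members was -0.46 for both lines together, -0.25 in BM1 and -0.61 in LM2, beside medians of -0.01, 0.00 and -0.04 over all genes tested. JUNB in BM1 fell under the 2-fold rule after rescaling without mitochondrial genes (-0.96) and after removal of the GC and length trend (-0.86). That removal also took JUN in LM2 under it (-0.97). With a pseudocount of 0.1 the LM2 differences of FOS (-1.12), EGR1 (-1.09) and ATF3 (1.15) also reached 2-fold, and that of ATF3 did with 0.5 (1.013).

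**Figure D3:**
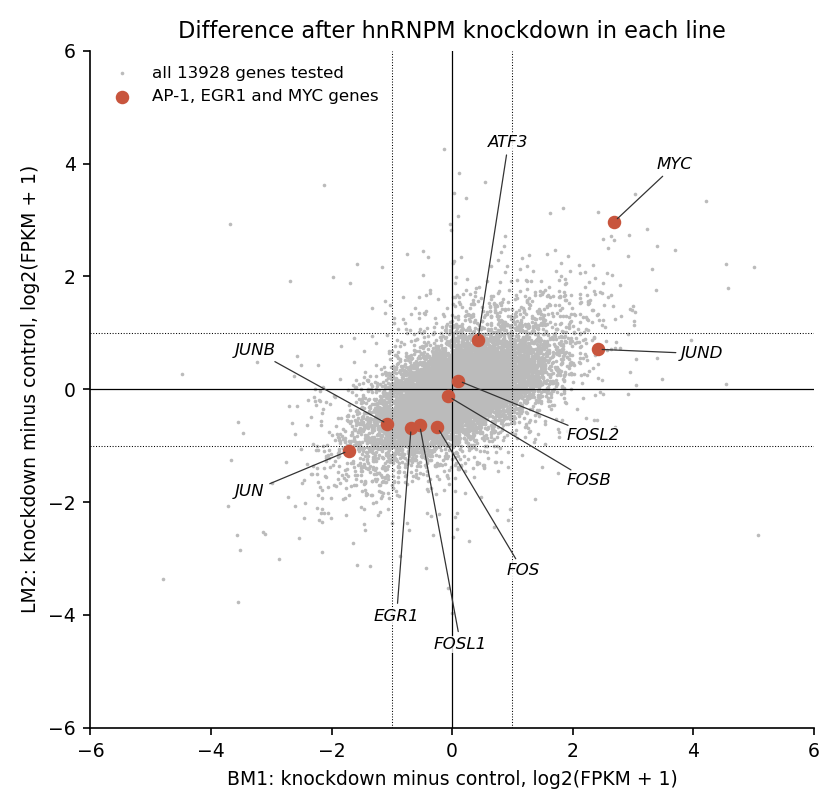
Knockdown minus control on the log2(FPKM + 1) scale in BM1 (x axis) and LM2 (y axis). Each grey point is 1 of the 13928 genes tested, red points are the 10 named genes, and dotted lines mark 2-fold differences. MYC lies at 2.69 and 2.97, JUND at 2.42 and 0.71 and JUN at -1.71 and -1.09, and all 10 lie in the lower left or upper right part of the plot.

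The order of levels put FOSL1 first and FOSB last in each of the 4 libraries. In both controls the order behind FOSL1 was JUN, FOSL2, JUNB, JUND and EGR1. In the BM1 control JUN and FOSL2 (44.1 and 41.0 FPKM) were close, as were MYC and ATF3 (2.60 and 2.56 FPKM), and in the LM2 control JUNB and JUND (12.0 and 11.6 FPKM). With 1 library a group, a spread for such neighbours cannot be given. In the knockdowns MYC held the 4th place in BM1 and the 5th in LM2, after the 7th and 9th places in the controls. FOSL2 was second in both knockdowns.

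Between the lines, none of the 9 members was called in limma over both treatments, where 4.35% of all genes tested were, 2.31% higher and 2.04% lower in LM2. At an unadjusted p under 0.05 there were 2, FOSL1 and FOSL2, where 22.4% of all genes tested passed. FOSL1 was higher in LM2 than in BM1 by 0.66 between controls and 0.57 between knockdowns (log2), and its difference over both treatments was 0.62 ± 0.25 (standard error, adjusted p 0.195). FOSL2 was lower in LM2 by values of -0.68 and -0.63, with -0.66 ± 0.25 over both treatments (adjusted p 0.171). JUN was at similar levels in the controls (0.17) and higher in LM2 between the knockdowns (0.80). MYC was lower in LM2 in both pairs (-0.51 and -0.23), and so was EGR1 (-0.36 in both). JUND was the member whose line difference was at least 2-fold in the controls (1.04, where 12.2% of all genes tested differed that much, 6.98% higher and 5.26% lower in LM2), and it was -0.67 between the knockdowns. With quantile normalization the control difference of JUND was 0.98, under 2-fold. No tested member differed 2-fold between the knockdowns, where 9.04% of all genes tested did, 4.41% higher and 4.63% lower. The direction was the same in both treatments for 6 of 9 members, beside 66.5% of all genes tested.

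**Figure D4:**
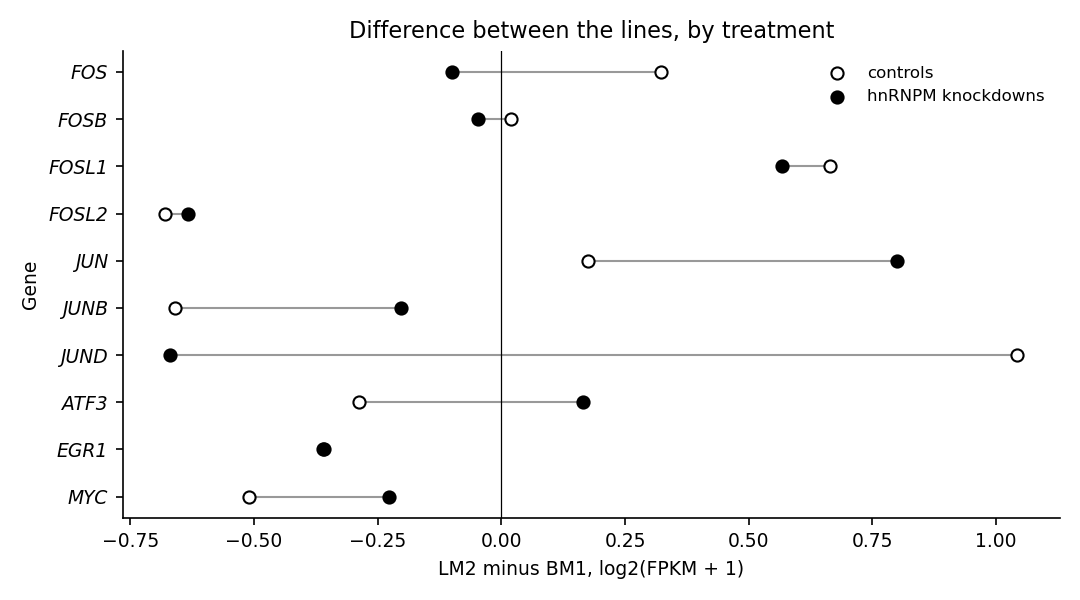
LM2 minus BM1 on the log2(FPKM + 1) scale for each of the 10 genes, as an open circle for the controls and a filled circle for the hnRNPM knockdowns. JUND goes from 1.04 to -0.67, the widest gap, while FOSL1 and FOSL2 keep their differences near 0.6 and -0.66 in both treatments.

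Genes around these factors were taken from 7 lists, written from general knowledge and with earlier results of these data known. They held 149 genes, of which 127 could be tested. Of these 4 were called higher and 6 lower in the knockdowns, where 2.71% and 2.76% of all genes tested were. The shares to set beside the counts below are these and, at an unadjusted p under 0.05, 24.9%. Because earlier results were known, the counts and medians of the lists are descriptions and no test. The calls of MMP1 and HMGA1 held after rescaling without mitochondrial genes (adjusted p 0.0462 for both), and those of KLF4 (0.0636), DUSP10 (0.0767), MAFK (0.0876), ATF2 (0.0888), MAFF (0.0938), DUSP6 (0.102), CDK4 (0.104) and DUSP4 (0.107) were lost. Removal of the GC and length trend lost at least those of ATF2 (limma adjusted p 0.145), DUSP4 (0.0640), MAFF (0.0623) and DUSP6 (0.0532). A pseudocount of 0.5 lost at least those of ATF2, MAFK, DUSP4 and DUSP6. None of the 10 calls held with quantile normalization, with no filter, without the pairing or with any 1 library left out.

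Among bZIP partners of AP-1 proteins, 2 of 12 tested genes rose and 1 fell (median 0.26, beside -0.01 over all genes tested). ATF2, a partner of c-Jun, rose from 6.27 to 14.3 FPKM (BM1) and 5.39 to 12.7 FPKM (LM2) (1.09 ± 0.25, limma adjusted p 0.0435). MAFK rose by 1.10 (adjusted p 0.0423) and MAFF fell by 1.32 (adjusted p 0.0296), both of them small Maf proteins that lack an activation domain. MAFF was at 8.35 and 3.49 FPKM in the BM1 pair, with 18.4 and 5.48 FPKM in the LM2 pair. PLA2G6 overlaps MAFF on the opposite strand and was at 1.38 to 2.21 FPKM, so the values of MAFF are uncertain. MAFK overlaps AC093734.1 on the same strand, which was at 10.8 and 26.6 FPKM in BM1, so its values are uncertain. Without the LM2 control, and so without the pairing, the difference of MAFF was -0.79. Under the alternatives that kept the pairing it was -1.48 to -1.13.

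Among 24 tested kinases and factors upstream of immediate-early genes, none was called in limma, with 6 at an unadjusted p under 0.05 and a median of -0.03. The largest average differences were in MAP2K4, a kinase that activates JNK (1.14, adjusted p 0.0883), RPS6KA5, the kinase MSK1 (-1.005, adjusted p 0.0594), and MAPK14, the kinase p38 alpha (0.88, adjusted p 0.0801). MAP2K4 was at 8.55 and 32.6 FPKM in the BM1 pair, with 18.5 and 25.8 FPKM in the LM2 pair. RPS6KA5 was called lower once the trends with GC content and length were removed (limma adjusted p 0.0470). It overlaps C14orf159 on the opposite strand, which was at 5.89 to 11.5 FPKM, so the values of RPS6KA5 are uncertain.

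Among 15 tested feedback inhibitors of MAP kinases, 1 rose and 2 fell (median -0.07). DUSP6, a phosphatase specific for ERK whose gene ERK signalling induces, fell from 93.2 to 37.3 FPKM (BM1) and 25.7 to 12.7 FPKM (LM2) (-1.13 ± 0.26, limma adjusted p 0.0423). DUSP4, a related nuclear phosphatase, fell from 128 to 64.7 FPKM (BM1) and 89.2 to 39.2 FPKM (LM2) (-1.07 ± 0.25, adjusted p 0.0462). DUSP10, a phosphatase that acts on JNK and p38, rose from 3.29 to 10.2 FPKM (BM1) and 5.54 to 13.7 FPKM (LM2) (1.27 ± 0.25, adjusted p 0.0283). DUSP6 overlaps a gene on the opposite strand that was at 40.8 FPKM in control and 24.5 FPKM in knockdown BM1 cells, so its values are uncertain. The difference of DUSP6 was -0.22 and -1.87 when BM1 control or knockdown was left out, and -2.04 and -0.39 when LM2 control or knockdown was. Those fits also dropped the pairing, so the difference between the lines entered them. Under the alternatives that kept the pairing DUSP6 stayed at -1.16 to -1.05.

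Of 16 other immediate-early genes tested, KLF4 alone was called, with 5 at an unadjusted p under 0.05 and a median of -0.20. KLF4, a zinc finger factor of epithelial differentiation, rose from 6.93 to 20.9 FPKM (BM1) and 6.18 to 23.1 FPKM (LM2) (1.60 ± 0.26, adjusted p 0.0150). RHOB, a small GTPase, differed by 1.38 (adjusted p 0.0746) and GADD45B, a stress gene, by -0.70 (adjusted p 0.161). RHOB had the larger difference in BM1, from 2.89 to 17.4 FPKM, and went from 8.28 to 12.2 FPKM in LM2.

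Among 16 tested AP-1 target genes 2 fell and none rose, with 11 of 16 lower and a median of -0.42, beside -0.01 over all genes tested. MMP1, a collagenase whose promoter holds AP-1 sites, was at 355 FPKM in control and 11.9 FPKM in knockdown BM1 cells, against 33.3 and 2.34 FPKM in LM2 cells. It fell by 4.08 ± 0.35 (log2, standard error, limma adjusted p 0.00285). The difference was -2.39 without the BM1 control, in a fit that also dropped the pairing, and -4.33 to -4.00 under the alternatives that kept it. HMGA1, a chromatin protein, fell from 616 to 68.9 FPKM (BM1) and 275 to 46.8 FPKM (LM2) (-2.83 ± 0.27, adjusted p 0.00318). IL11, a cytokine, was at 108 and 65.6 FPKM in the BM1 pair, with 54.1 and 8.76 FPKM in the LM2 pair (-1.60, adjusted p 0.0515). It was called lower in 2 of the 14 alternatives (limma adjusted p 0.0355 at the lowest).

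Among MYC's partners and targets none was called higher, although TFRC was in 2 of the 14 alternatives (limma adjusted p 0.0277 at the lowest). Of 17 tested genes of the MYC network none was called in limma, with 4 at an unadjusted p under 0.05 and a median of -0.10. The largest differences were in RUVBL1, a chromatin ATPase (-0.83, adjusted p 0.0979), FBXW7, the ligase subunit that marks MYC protein for degradation (0.74, adjusted p 0.169), and MXI1, a MYC antagonist (-0.68, adjusted p 0.198). Among 27 tested MYC target genes 14 were higher and 13 lower, with a median of 0.03, and CDK4, a cell cycle kinase, was the single call. CDK4 fell from 80.4 to 38.9 FPKM (BM1) and 195 to 85.9 FPKM (LM2) (-1.10 ± 0.25, adjusted p 0.0426). Its difference was -1.73 and -0.54 when BM1 control or knockdown was left out, and -0.47 and -1.66 when LM2 control or knockdown was. Those fits also dropped the pairing, so the difference between the lines entered them. Under the alternatives that kept the pairing CDK4 stayed at -1.11 to -0.91. TFRC, the transferrin receptor, differed by 1.16 (adjusted p 0.0514) and EIF4E, the cap-binding factor, by 0.77 (adjusted p 0.132). The difference of MYC itself was 2.83. RUVBL1 and CDK4 overlap other genes on the opposite strand, so their values are uncertain.

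**Figure D5:**
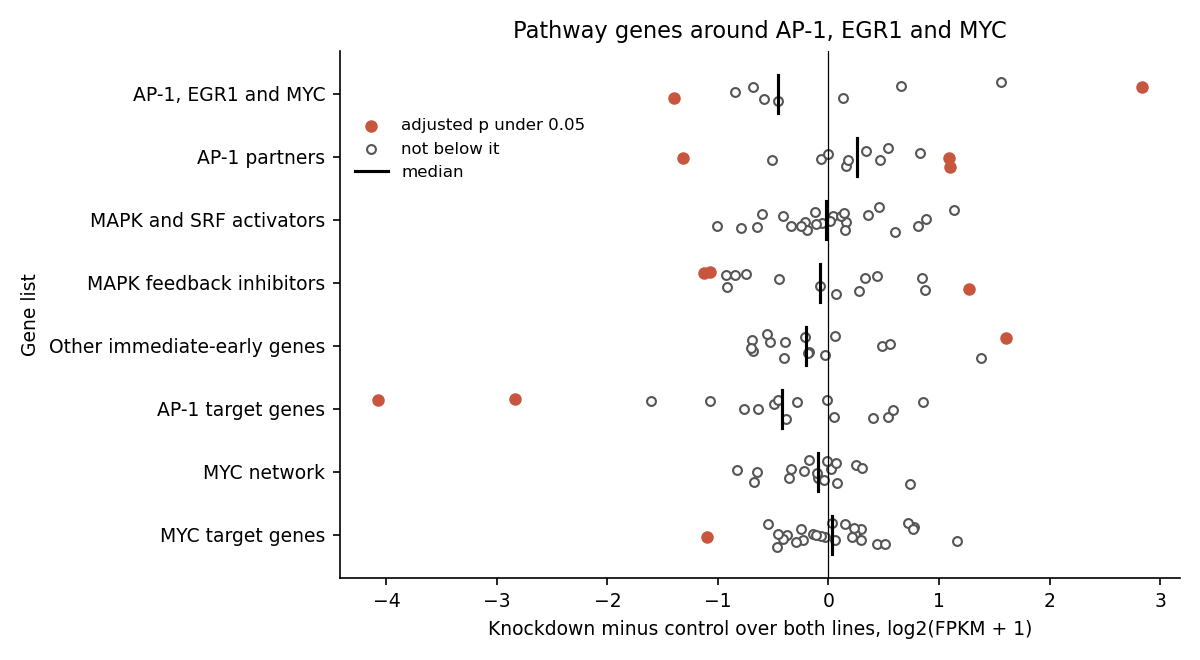
Knockdown minus control over both lines on the log2(FPKM + 1) scale for the tested members (top) and the tested genes of the 7 lists. Filled points are below an adjusted p of 0.05 in limma, open points are not, and a bar marks each list's median, which is lowest for the members (-0.46) and the AP-1 target genes (-0.42) and highest for the AP-1 partners (0.26).

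Genes with the most similar pattern were sought for the 6 members that spanned at least 1 on the log2 scale, by the Euclidean distance between mean-centred log2(FPKM + 1) profiles over the 4 libraries. With 4 libraries such likeness is a description only. Nearest to JUN were UBALD2 (distance 0.0312), FGFR1 (0.133) and CTD-2020K17.1 (0.160). UBALD2 was at 44.9 and 13.3 FPKM in the BM1 pair, with 52.3 and 23.8 FPKM in the LM2 pair, close to JUN in each library. Nearest to JUNB were VPS37B (0.0322), PPP1R35 (0.0505) and LSM4 (0.0558). Nearest to FOSL1 were RAB9B (0.0520), MBD3 (0.0793) and FAM156B (0.0804). EGR1 was nearest to KIF4A (0.0286), OGFOD3 (0.0316) and RILPL2 (0.0390). The nearest genes of JUND were farther off, at 0.155 for KITLG, 0.196 for TNFRSF11B and 0.208 for MAP3K2. MYC had the least close ones, at 0.258 for WFDC21P, 0.466 for RSC1A1 and 0.473 for AC010441.1.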

How the data were processed

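Gene levels of 4 RNA-seq libraries were analysed, 1 per group. The authors deposited 1 table of FPKM values with 1 column per library. Per the submitters' processing notes, STAR 2.5.3a, Cuffdiff 2.2.1 and build GRCh37 were used, with no role or order given. The sources used here do not give the annotation release or the strand setting. The table has 20369 entries, and 40 with repeated gene IDs were left out. Values were analysed as log2(FPKM + 1), and genes averaging 1 FPKM or more were tested with limma 3.58.1 in R 4.3.3 (terms for cell line and treatment, two-sided p, Benjamini-Hochberg adjustment over 13928 genes, threshold 0.05). The line pairs the libraries, because both come from 1 cell line (Pearson r of 0.545 across genes between deviations from the treatment means). Within a line there is 1 library per group and no test, and a 2-fold rule was used. P-values and standard errors rest on the spread between these 4 libraries only, and largely on that spread pooled over all genes tested.

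The depth was read from genes with 1 transcript in GENCODE 29 (1623 genes, mean under 0.5 FPKM, length over 600 bases). The largest step that put at least 30% of the products of FPKM and length within 0.02 of a whole multiple was taken as 1 fragment, and 36.6% to 44.9% of the products up to 10 steps did so. Since fewer than all products were whole multiples, exact counts were not recovered and no counts were tested. The fragment numbers given for EGR1 are approximate. The fit was tested on simulated data, where it recovered most 4-fold and few 2-fold changes, and in most trials the share of false calls was above the threshold. The simulation changed a small set of genes, each equally in both lines, unlike these data, so its shares need not hold here. The members and gene lists were chosen with earlier results of these data known. Genes named are every member, HNRNPM, the called genes and the 3 largest average differences of each list, and the 3 nearest profiles. Alternatives were other pseudocounts, filters and scalings, an intensity trend, no pairing, leaving out each library and, chosen after seeing the data, removing trends with GC content and transcript length.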

Additional observations from a re-analysis of the deposited data

Results flagged for a closer look

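The difference between the lines had opposite signs in controls and knockdowns for 4 members, and none of these contrasts was tested, because each value compares single libraries. For JUND the line difference was lower by 1.71 in the knockdowns than in the controls (-1.71 on the log2 scale, from 1.04 to -0.67). For ATF3 the corresponding value was 0.45, from -0.29 to 0.17. For FOS it was -0.42, from 0.32 to -0.10, and the knockdown value turned to 0.01 with quantile normalization. For FOSB, which was under 1 FPKM in every library, it was -0.0665.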

How the results depend on the processing

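With 4 libraries and 1 residual degree of freedom the count of calls depended on the settings, while the directions of MYC and JUN did not. The knockdown fit called 762 genes, 2 members and 10 listed genes, and the line fit 606 genes. With a pseudocount of 0.1 these were 27, 1, 1 and 216, and the 2-fold counts became 1824 from 1123 in LM2, 2636 from 1705 between controls, 2013 from 1259 between knockdowns and 2419 from 1490 for the difference between the lines' changes. A pseudocount of 0.5 gave 5 listed genes. Rescaling without mitochondrial genes gave 16 genes, 1 member (MYC), 2 listed genes and 154 genes between lines. Removal of the GC and length trend gave 425 genes and 1 member (MYC). Quantile normalization gave 0 genes, 0 members, 0 listed genes and 104 between lines (3255 genes at an unadjusted p under 0.05 in limma for the knockdown), and no filter gave 0 throughout (3735 and 3634). Without the pairing (no replicate block) the counts were 0, 0, 0 and 11 (1548 genes at an unadjusted p under 0.05 for the knockdown). Leaving out the BM1 control, BM1 knockdown, LM2 control or LM2 knockdown library, which also removed the pairing, gave 0 genes, members and listed genes (860 to 1943 at an unadjusted p under 0.05) and 6 to 28 between lines. A lone sample in an arm was assumed to vary like the others.

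Leaving out a library also turned some directions, none of them called. The line difference ranged from -0.22 to 0.45 for FOS, -0.37 to 1.34 for JUN, -0.97 to 0.11 for JUNB, -1.02 to 1.40 for JUND, -0.50 to 0.38 for ATF3 and -1.85 to 1.12 for MYC, and it became 0.0400 for ATF3 after removal of the GC and length trend. The knockdown difference ranged from -0.21 to 0.47 for FOSL2 and from -1.52 to 0.16 for MXI1. Those fits had no pairing, so the knockdown arms held the lines, and the line arms the treatments, in unequal numbers. The line and knockdown differences thus mix. Under the alternatives that kept the pairing, the line difference was -0.48 to -0.24 for MYC, 0.49 to 0.57 for JUN and -0.46 to -0.34 for JUNB. It was 0.16 to 0.24 for JUND, 0.11 to 0.24 for FOS and -0.10 to 0.04 for ATF3. The knockdown difference was then 0.13 to 0.22 for FOSL2 and -0.80 to -0.61 for MXI1. The cause of the other changes was not tested.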

Other observations

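Between the lines 9 of the 127 listed genes were called in limma over both treatments, 3 higher and 6 lower in LM2, where 2.31% of all genes tested were higher and 2.04% lower (4.35% in all), and they were named after their values were seen. Higher in LM2 were IER5L, an early response gene (2.31, adjusted p 0.00229), PLAU, which encodes urokinase (1.53, adjusted p 0.0260), and CDK4 (1.20, adjusted p 0.0367). Lower in LM2 were MMP1 (-2.66, adjusted p 0.00527), IL11 (-1.88, adjusted p 0.0360), DUSP6 (-1.65, adjusted p 0.0117), ODC1, the first enzyme of polyamine synthesis (-1.50, adjusted p 0.0156), SPRY2, an inhibitor of receptor signalling (-1.38, adjusted p 0.0219), and RPS6KA1, the kinase RSK1 (-1.22, adjusted p 0.0353). DUSP6 was at 93.2 and 37.3 FPKM in the BM1 pair, with 25.7 and 12.7 FPKM in the LM2 pair. SPRY2 was at 39.1 and 44.3 FPKM in the BM1 pair, with 15.6 and 15.2 FPKM in the LM2 pair. IER5L, PLAU, CDK4 and DUSP6 overlap genes on the opposite strand, so their values are uncertain.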
